A study of Danio rerio with 18 samples.

Results

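The unexposed control larvae were 3 of the 18 whole-body RNA samples of a zebrafish study, chosen by their label alone, and their transcript values were summed for each annotated gene. All 18 samples were AB (wild type) larvae at 120 hours post fertilisation, and no transgene or mutation is given for any of them. The other 15 samples had been exposed to perfluorobutanesulfonic acid (PFBS), a short-chain fluorinated surfactant, at 7, 70, 700, 3500 or 7000 µM with 3 samples each. The study set the effects of this compound on the developing nervous system beside those of its longer-chain relative. The controls are described here as a baseline, and the exposed groups enter where they show how far that baseline moves. How the controls were kept, for how long the others were exposed and how many larvae made up a sample is not stated in the labels, and nothing says that the samples came from separate animals or pools, so the spread between them may be technical.

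A zebrafish larva of this age has hatched, swims with its trunk and tail, hunts by sight and is finishing its yolk. The trunk is filled with fast, glycolytic muscle, in which parvalbumins bind calcium between contractions and creatine kinase restores ATP at the filaments. In RNA of a whole body, abundant tissues and tissues with few but very active genes both take a large part, and fewer cells of a type cannot be told apart from less RNA per cell.

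The deposited table listed 59876 transcripts of 32520 genes. Total counts were 18720802, 14937147 and 17114017 in control replicates 1, 2 and 3, and the deepest of the 18 libraries had 19267232. A count was found for 25725 genes in at least 1 control and for 23300 in all 3, while 6795 genes, 20.9%, had none. A count of 0 allows up to 3 counts in a library, which is 0.16 to 0.201 CPM (counts scaled to library size) in the controls and covers counting error only. Levels of different genes are compared below as the deposited TPM, transcript abundances scaled for length and library size, and levels of 1 gene between samples as CPM after TMM scaling, which evens out differences in library composition. The number of genes at 1 TPM or more was 18855, 18858 and 18330 in replicates 1 to 3, and those at 1000 TPM or more numbered 169, 168 and 154. Protein-coding transcripts took 97.5 ± 0.0727% of counts (SD, n = 3), and mitochondrial ribosomal RNA took 0.154 ± 0.0153%.

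Few genes made up much of the larval RNA. The 10 highest genes held 19.9 ± 0.372% of all TPM (SD, n = 3), the highest 40 held 34.5 ± 0.43%, and 50% was reached with 99, 101 and 92 genes in replicates 1, 2 and 3. Of the highest 40 by mean control TPM, 11 were encoded by the mitochondrial genome, 11 encoded ribosomal proteins, 7 belonged to the list of muscle contractile proteins and 4 to that of muscle energy and calcium handling. The other 7 were the elongation factor gene eef1a1l1, the fast troponin C gene tnnc2, a contractile gene that the list does not hold, the nucleoside diphosphate kinase gene nme2b.2, the ADP/ATP carrier gene slc25a5, and zgc:158463, CT027638.1 and si:dkey-151g10.6. The files give no function for these last 3, and CT027638.1 is annotated as a long intergenic RNA.

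**Figure D1:**
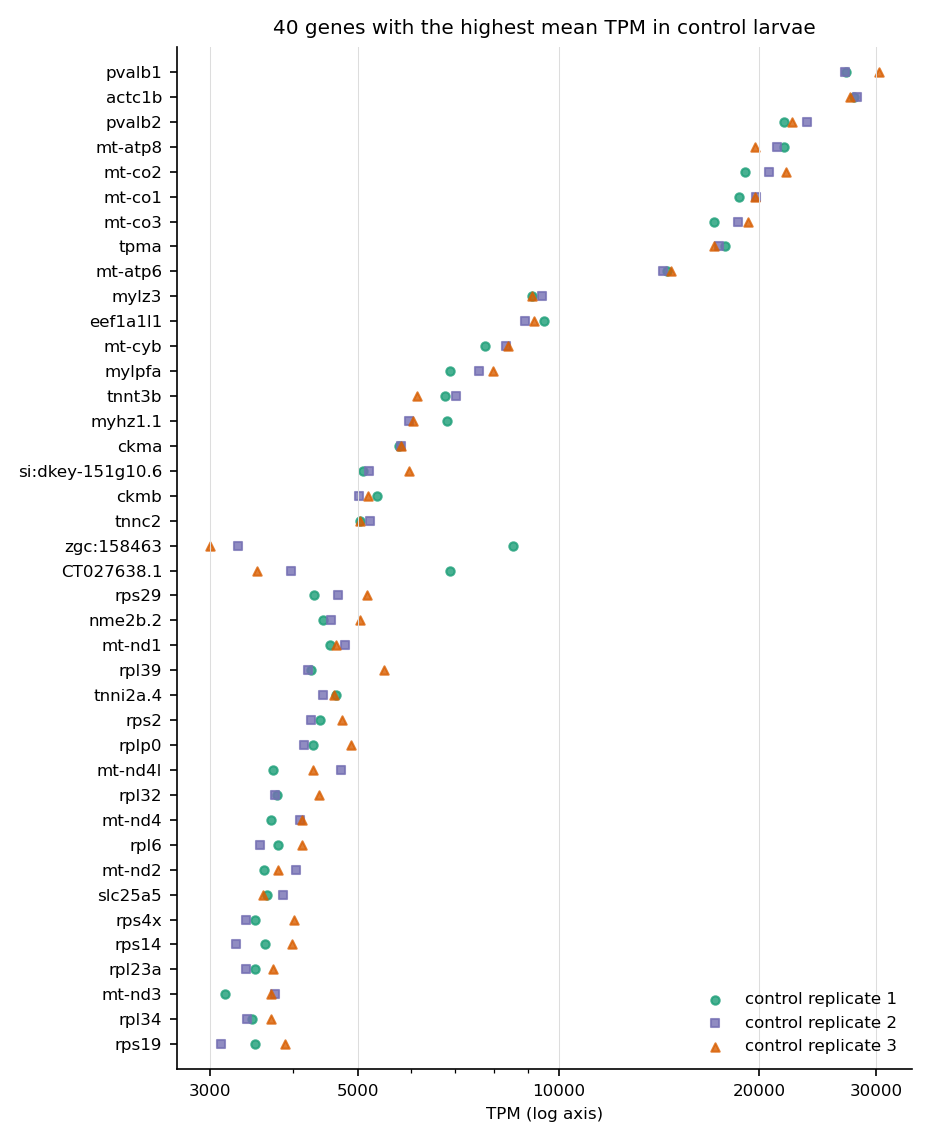
TPM (log axis) of the 40 genes with the highest mean in control larvae, with 1 symbol for each of control replicates 1, 2 and 3. The symbols of a gene lie close together for nearly all genes, and zgc:158463 stands out with 8558 TPM in replicate 1 against 3305 and 3001 in the others.

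Genes of fast skeletal muscle led. The parvalbumin gene pvalb1 on chromosome 3 (61193890 to 61205711) had 26990, 26927 and 30217 TPM in replicates 1, 2 and 3. The alpha-actin gene actc1b on chromosome 17 (117024 to 125091) had 27721, 28055 and 27408 TPM. The order of these leaders was not the same in every sample, since actc1b was above pvalb1 in replicates 1 and 2 and below it in replicate 3. A second parvalbumin gene, pvalb2 on chromosome 12 (17710425 to 17712498), had 21812, 23626 and 22432 TPM, below both in each sample. Coordinates are those of the deposited table, for which the sources used here name no genome build.

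The thin and thick filament genes followed. The tropomyosin gene tpma on chromosome 7 (29951997 to 29962080) had 17786, 17407 and 17113 TPM, below pvalb2 in each sample. The essential and regulatory myosin light chain genes mylz3 and mylpfa averaged 9234 ± 193 and 7483 ± 553 TPM (SD, n = 3), and the troponin T gene tnnt3b averaged 6641 ± 461 TPM. The muscle creatine kinase genes ckma and ckmb had mean levels of 5793 ± 24.8 and 5184 ± 163 TPM, and ckma stood at 5764, 5806 and 5808 TPM in the 3 samples. These genes were steady, with each sample close to the mean of its gene.

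Myosin heavy chain showed how far length enters. The fast heavy chain gene myhz1.1 ranked 15 by TPM with 6276 ± 464 (SD, n = 3), yet by reads it ranked 1 of all genes, at 30258 ± 2336 CPM, since its transcript is long. Its neighbours myhz2, myhz1.3 and myhz1.2 lie beside it on chromosome 5 between 32206378 and 32293002 and had 5390, 5401 and 9377 CPM on average. These 4 are close paralogs, and how reads that match several of them were shared is not stated, so the level of each alone is uncertain. The slow fibre gene smyhc1, a defining gene of the other fibre type, had 129, 113 and 79.5 TPM, far below myhz1.1 in each sample. The calcium pump of the sarcoplasmic reticulum, atp2a1, had 8087 ± 656 CPM and 3394 ± 391 TPM.

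The mitochondrial genome supplied another block of high genes. The cytochrome oxidase genes mt-co1, mt-co2 and mt-co3 averaged 19382 ± 634, 20568 ± 1457 and 18332 ± 1090 TPM (SD, n = 3), and mt-co2 had 19042, 20719 and 21944 TPM in replicates 1, 2 and 3. The ATP synthase gene mt-atp6 had 14543 ± 209 TPM and the cytochrome b gene mt-cyb 8159 ± 354 TPM. The complex I genes were lower, with mt-nd1 at 4655 ± 128 TPM and mt-nd3 at 3539 ± 334 TPM. On the light strand, mt-nd6 had 195, 139 and 167 counts, against 56408, 48307 and 54138 for mt-nd5, which lies next to it on the other strand. Strand use in counting is not stated, and mt-atp8 overlaps mt-atp6 as mt-nd4l overlaps mt-nd4, so reads at these borders cannot be told apart. All 22 mitochondrial transfer RNA genes had 0 counts in the controls, and of the 37 genes of this genome 15 had any.

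For the shortest genes the deposited TPM were set by the length used. Mitochondrial genes have no introns. Where the length behind their deposited values was over 250 bases, it was shorter than the annotated span by a median of 232 bases. The reduction was smaller in the shortest genes, at 229, 224 and 162 bases for mt-nd3, mt-nd4l and mt-atp8. The gene mt-atp8, with a span of 165 bases (MT 8894 to 9058), was treated as 3.24 bases long. It ranked 4 by TPM, with 21811, 21252 and 19732 TPM, on only 1160, 826 and 928 counts, or 57.1 CPM, which ranked 2657. With the annotated length it had 563 TPM and ranked 239. In the same way mt-nd4l moved from 4243 to 1433 TPM and rank 128, and mt-nd3 from 3539 to 1688 TPM and rank 108. For nuclear genes the annotated length was estimated from its relation to the length used in 15 mitochondrial genes. On that estimate rps29 moved from 4706 to 2191 TPM and rank 77, and rpl39 from 4649 to 1796 TPM and rank 101. The leading muscle and mitochondrial genes remained at the top, with actc1b at rank 1, pvalb1 at rank 2 and mt-co1 at rank 3, and 30 of the 40 highest genes were the same.

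Genes of protein synthesis stood below these by their single leading genes but held a larger summed share of the deposited TPM. The size of that share depends on the length used, since ribosomal protein genes were short. Their median was 470 bases in the length behind the deposited values, which ran below the annotated span in mitochondrial genes. The 97 genes matched by ribosomal protein symbols held 19.2, 18.6 and 21.3% of TPM in replicates 1, 2 and 3. This list also matched 11 genes of ribosomal S6 kinases, which are signalling enzymes, and these held 0.0131% of TPM together. The elongation factor eef1a1l1, which brings aminoacyl-tRNA to the ribosome, had 9525, 8915 and 9199 TPM. Among ribosomal proteins rps2 had 4458 ± 247 TPM (SD, n = 3) and rplp0, of the ribosomal stalk, 4438 ± 385 TPM. Every one of the 97 genes was above 1 TPM, and 80 were at 100 TPM or more.

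The genes were then grouped in 51 lists, 37 of them for tissues, and the summed TPM of a list was taken as its share. The lists covered 1862 genes and 67.8 ± 0.41% of TPM (SD, n = 3), and the tissue lists alone covered 27.1 ± 1.35% with 1215 genes. A gene in more than 1 list counted once in these totals. As the 3 controls are a single group, shares of different tissues are set side by side as a description, with no test.

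**Figure D2:**
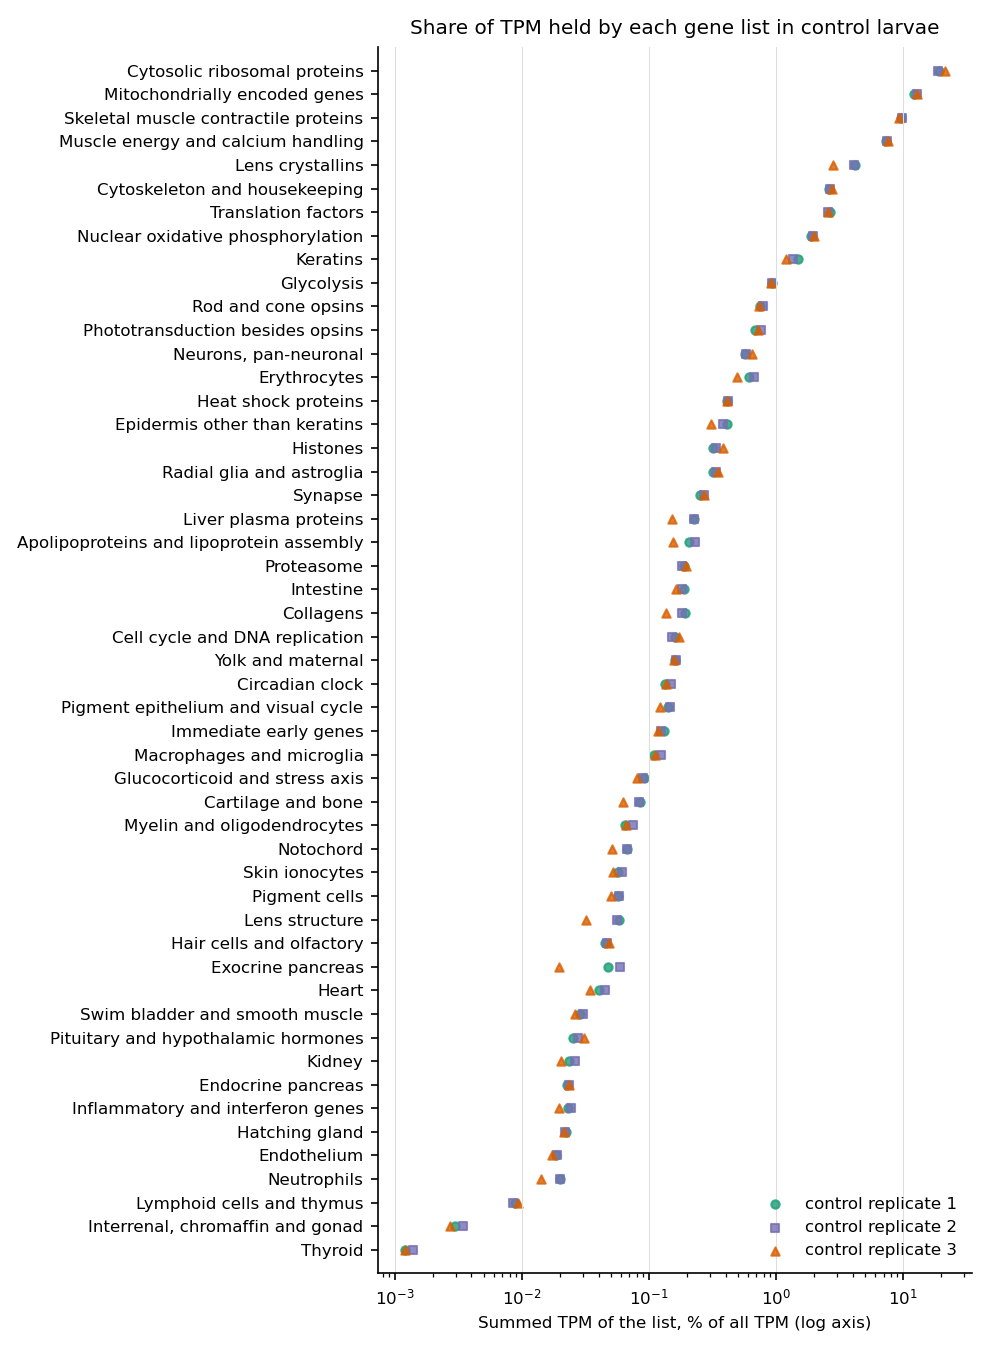
Summed TPM of each gene list as a percentage of all TPM (log axis) in control larvae, with 1 symbol for each of control replicates 1, 2 and 3. Ribosomal proteins, mitochondrial genes, muscle and lens crystallins lie at the top, at 19.7, 12.6, 9.57 and 3.71% on average, and thyroid and interrenal genes at the bottom. The mitochondrial share includes 2.09% of TPM from mt-atp8, a value set by the short length used for it.

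Skeletal muscle was the leading tissue by these lists. Contractile proteins took 9.68, 9.76 and 9.27% of TPM in replicates 1, 2 and 3, and muscle energy and calcium genes took 7.30, 7.45 and 7.55%. Both together, 113 genes, held 17 ± 0.197% of TPM (SD, n = 3), an SD that is small beside the level. All 3 defining markers of the tissue, actc1b, mylpfa and ckma, were among the 40 highest genes. Heart was far lower. Its leading genes actc1a, at 301 ± 43.8 TPM, and ttn.2, at 37.4 ± 6.47 TPM, are also used by skeletal muscle, and the cardiac myosin light chain gene myl7 had 62, 48 and 9 counts.

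The eye was the second tissue. Its 5 lists, of lens crystallins, lens structure, opsins, other phototransduction genes and the visual cycle, held 5.81, 5.89 and 4.42% of TPM. Crystallins, the refractive proteins that fill the lens fibre cells, made up most of this with 4.18, 4.13 and 2.81%. The beta crystallin gene crybb1 led at 3487, 3412 and 2535 TPM, followed by the gamma M crystallins crygm2d8 with 2168, 2087 and 1479 TPM and crygm2d13 with 2136, 2067 and 1228 TPM. Replicate 3 was the lowest for all 3 genes. Members of the gamma M family are close copies, several side by side on chromosome 9, so their single values are uncertain. The lens membrane gene lim2.4 had 120 ± 33.0 TPM (SD, n = 3).

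In the retina every photoreceptor class was read. The rod opsin gene rho had 2209, 2338 and 2297 TPM, and the ultraviolet cone opsin gene opn1sw1 had 1964, 2333 and 1938 TPM, below rho in each sample but close to it in replicate 2. The blue cone opsin gene opn1sw2 averaged 874 ± 46.5 TPM (SD, n = 3). The green and red cone opsins are each encoded by tandem copies that larvae use unequally. Among the green copies opn1mw1 had 1125 ± 65.9 TPM and opn1mw2 116 ± 19.7 TPM, opn1mw3 had 0.5, 0.21 and 0.3 TPM, and opn1mw4 had no count. Among the red copies opn1lw2 had 1064 ± 24.5 TPM and opn1lw1 15.1, 19.1 and 13.9 TPM. The cone transducin genes gngt2b and gnat2 averaged 1821 ± 196 and 835 ± 38.4 TPM.

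Skin and the nervous system came next among the tissues. Keratins, the intermediate filaments of the epidermis, held 1.48, 1.35 and 1.19% of TPM in replicates 1, 2 and 3. The genes cyt1 and krt91 led with 2848 ± 378 and 2794 ± 90.6 TPM (SD, n = 3). The superficial layer marker krt4 had 1798, 1453 and 1162 TPM, and krt5 had 1298, 1179 and 872 TPM, in both cases with the lowest value in replicate 3. Collagens held 0.192, 0.182 and 0.136%, led by the fibrillar gene col1a1a at 303 ± 74.0 TPM. The matrix gene sparc had 469 ± 80.7 TPM and the melanosome gene tyrp1b 152 ± 14.9 TPM. The bone markers sp7 and bglap were near the floor, and bglap had 0, 2 and 2 counts.

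The nervous system, with 4 lists of 155 genes, held 1.27 ± 0.0624% of TPM (SD, n = 3). This was 1.21, 1.26 and 1.33% in replicates 1, 2 and 3, above the share of keratins only in replicate 3. Epidermis genes other than keratins, which that comparison leaves out, held 0.413, 0.385 and 0.309%. By read counts the 4 nervous system lists held 2.16 ± 0.121%, and the keratin share by that unit is not given here. The share of pan-neuronal genes was 0.571, 0.583 and 0.649%. The neuronal tubulin genes tuba1c and tuba1a led at 763 ± 78.8 and 630 ± 91.1 TPM, with the microtubule regulator stmn1b at 539 ± 54.0 TPM, and all 3 were highest in replicate 3. The RNA-binding protein gene elavl3, which marks differentiating neurons, had 113, 115 and 112 TPM. The synaptic fusion genes snap25b and snap25a had 304 ± 25 and 242 ± 16.4 TPM. In radial glia, which serve as progenitors and support cells, fabp7a led at 938 ± 93.7 TPM and the glutamate transporter gene slc1a2b had 304 ± 20.1 TPM. Myelin basic protein was read from mbpb at 119 ± 13.1 TPM and mbpa at 78.5 ± 14.8 TPM.

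Digestive organs were present at low shares that differed between the samples. Liver plasma protein genes held 0.224, 0.225 and 0.152% of TPM, led by the liver fatty acid binding protein gene fabp10a at 628, 559 and 330 TPM. The transferrin gene tfa had 133, 152 and 80.4 TPM. Apolipoprotein genes, which carry yolk and dietary lipid, included apoa1b at 462, 481 and 233 TPM and apoa2 at 420, 468 and 174 TPM. Each of these 4 genes had its lowest value in replicate 3. Not every apolipoprotein gene did, since apoeb had 397, 441 and 460 CPM, highest in replicate 3. The ileal bile acid binding protein gene fabp6 led the intestine with 827, 743 and 809 TPM and was lowest in replicate 2, while fabp2 had 159, 161 and 110 TPM.

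Exocrine pancreas, the source of digestive enzymes, held 0.0474, 0.0595 and 0.0197% of TPM. None of its 38 genes reached 100 TPM on average. The trypsin gene prss1 led with 89.4, 119 and 40.8 TPM, and the elastase gene cela1.6 followed with 90.64, 105.46 and 31.05 TPM. Replicate 3 was thus below both other samples by over 2-fold for each. The hormone genes of the endocrine pancreas were few in reads, with 18, 18 and 8 counts for the insulin gene ins. The endocrine list was led by neurod1 at 127 ± 5.31 TPM (SD, n = 3) and pax6b at 32.9 ± 2.53 TPM, transcription factor genes that neurons and retina also use.

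Blood was embryonic or larval in type. Erythrocyte genes held 0.616, 0.674 and 0.495% of TPM, and the globin genes hbae3 and hbbe1.1 had 1131, 1248 and 994 TPM and 914, 1118 and 679 TPM. The adult globin gene hbba1 had 0, 0 and 1 count and hbaa1 1, 1 and 2 counts. White cells gave little RNA, with the lysozyme gene lyz at 50.9, 55.2 and 26.6 TPM and the lymphoid recombinase gene rag1 at 0.87, 0.62 and 0.4 TPM. The macrophage list was led by apoeb at 443 ± 32.3 TPM (SD, n = 3), which glia and yolk-handling cells also express, while its defining marker mpeg1.1 had 3.57, 3.3 and 2.74 TPM. The vascular genes cdh5 and kdrl had 6.23 ± 0.524 and 3.70 ± 0.68 TPM.

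Of 67 defining markers of 30 tissues, none was at 0 in all 3 controls, 17 averaged 100 TPM or more and 16 averaged under 1 TPM. The low ones included hormone, bone, germ line and yolk genes. The pituitary genes prl and gh1 had 1, 0 and 3 counts and 1, 4 and 4 counts, and the thyroglobulin gene tg had 16, 12 and 16. The germ line gene ddx4 had 12, 26 and 13 counts. The yolk precursor gene vtg1 had 1, 0 and 0 counts and the hatching enzyme gene he1.1 had 7, 1 and 1. Yolk genes held 0.160% of TPM on average only through ybx1, an RNA-binding protein gene at 1179 ± 30.6 TPM (SD, n = 3), and the cathepsin genes ctsl.1 and ctsla, which other tissues also express. The hatching gland list likewise rested on cd63 at 101 ± 4.53 TPM and xbp1 at 98.5 ± 4.65 TPM.

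How far the 3 controls differed was then measured. Their common dispersion was fitted by edgeR on 19550 genes of the controls alone. It corresponded to a coefficient of variation of 9.57% between samples beyond counting error. The same value was 10.9, 14.8, 10.6, 13.6 and 15.6% within the groups at 7, 70, 700, 3500 and 7000 µM, and differences between groups were not tested. Among 10262 genes with a mean of at least 10 CPM, the highest control exceeded the lowest by a median of 1.15-fold, 339 genes (3.30%) spanned over 1.5-fold and 65 genes (0.633%) over 2-fold. The median coefficient of variation of a single gene, which includes counting error, was 7.15%, against 4.53% from counting alone. The chi-square per degree of freedom was 5.50 for replicates 1 and 2, 12.3 for 1 and 3 and 8.33 for 2 and 3. Each pair thus differed by more than counting error alone, and the source of the excess was not tested.

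Replicate 3 stood apart. Of the 65 genes that spanned over 2-fold, 49 were low in replicate 3 alone, 5 were high in replicate 3 alone, 5 high in replicate 1, 3 low in replicate 1 and 3 low in replicate 2. The SD of the log2 difference over the 10262 genes was 0.16 between replicates 1 and 2, 0.23 between 1 and 3 and 0.23 between 2 and 3. Without replicate 3 the coefficient of variation fell from 9.57 to 6.31%, and without replicate 1 or 2 it was 10.6 or 11.3%. Statements on spread below therefore rest mainly on this library, whose depth of 17114017 counts lay between those of the others.

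The departure of replicate 3 followed tissue lists. For each gene the log2(CPM + 0.5) of replicate 3 was set against the mean of replicates 1 and 2, and over all 10262 genes the median of this deviation was 0.03, with 42.3% of genes lower. All 9 exocrine pancreas genes were lower, with a median of -1.37 and a range of -1.92 to -1.20. All 22 liver genes were lower with a median of -0.70, all 36 crystallins with -0.55, and 9 of 10 lens structure genes with -0.86. Collagens (35 of 37 lower, median -0.37), notochord (10 of 10, -0.30) and contractile proteins (47 of 55, -0.28) went the same way. So did keratins (17 of 18, -0.20) and erythrocytes (19 of 24, -0.19). These medians weigh each gene equally, and the 7 contractile genes among the 40 highest by TPM were near level or higher. The genes actc1b, tpma, mylz3, tnni2a.4 and mylpfa deviated by 0.02, 0.02, 0.07, 0.08 and 0.199. The genes myhz1.1 and tnnt3b deviated by -0.02 each. The contractile share of TPM was 9.68, 9.76 and 9.27% in replicates 1, 2 and 3, a smaller fall than in the crystallin or liver shares.

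Other lists lay above the rest in replicate 3. Genes matched by ribosomal protein symbols were higher in 87 of 88 cases with a median deviation of 0.23. Without the ribosomal S6 kinases they were higher in 83 of 83, with a median of 0.24. Histones were higher in 11 of 11 with 0.26, proteasome genes in 34 of 36 with 0.12 and pan-neuronal genes in 36 of 47 with 0.14. The opsins divided evenly, 4 lower and 4 higher, with a median of 0.01, so that within the eye the lens was lower and the opsins were not. Lists of short transcripts lay on both sides. By the length behind the deposited values, crystallins had a median of 590 bases, exocrine genes 703 and ribosomal proteins 470. With all genes put in 4 classes of equal size by length, the median deviation was 0.08 in the shortest class and 0.00 in the longest. With 1 sample on that side no test applies, and the part of transcript length in the pattern was not tested.

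**Figure D3:**
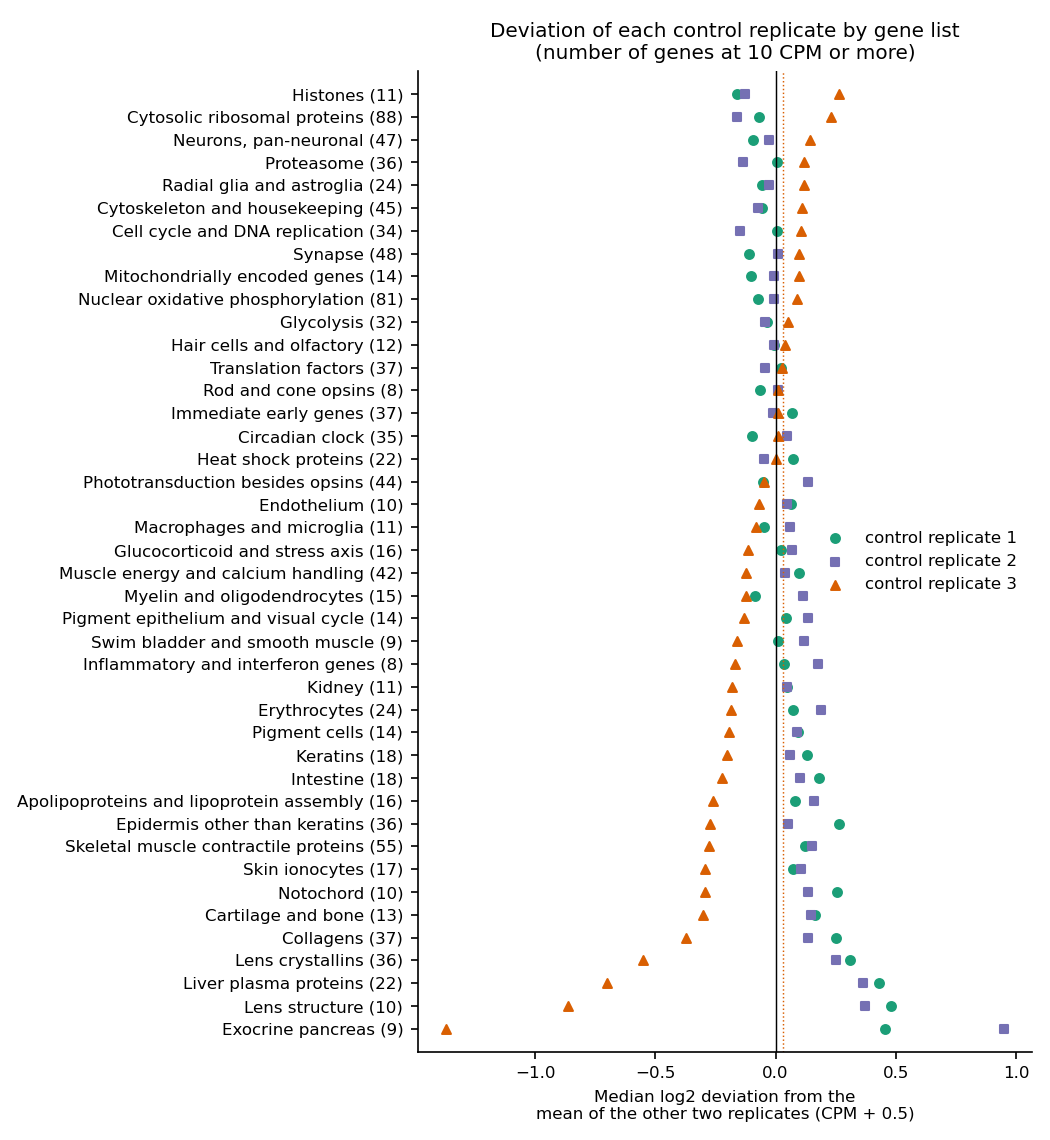
Median log2 deviation of each control replicate from the mean of the other 2 (CPM + 0.5), for each gene list, with the number of genes at 10 CPM or more in brackets and 1 symbol for each replicate, for lists of at least 8 such genes, with a dotted line at the replicate 3 median of all genes, 0.03. Replicate 3 runs from -1.37 for exocrine pancreas to 0.26 for histones.

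The 20 named genes with the widest range among the controls show the same pattern gene by gene, and 18 of them had their lowest value in replicate 3. All 9 exocrine genes at 10 CPM or more were among them. The carboxypeptidase gene cpa5 had 13.4, 14.3 and 3.30 CPM in replicates 1, 2 and 3, a ratio of highest to lowest of 4.35, and the elastase gene ela3l had 16.02, 20.9 and 4.89 CPM, a ratio of 4.27. The chymotrypsinogen gene ctrb1 had 18.1, 26.4 and 7.65 CPM. The calpain gene capn3a had 80.01, 76.2 and 21.3 CPM, and the lens water channel gene mipb 78.1, 68.9 and 29.6 CPM. Liver genes among them were the fibrinogen gene fga with 28.4, 26.4 and 10.54 CPM, serpina1l with 21.4, 23.2 and 8.65 CPM and apoa2 with 163, 177 and 70.12 CPM. In each of these 8 genes replicate 3 lay below both other samples by over 2-fold.

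A few wide genes did not follow replicate 3. The small heat shock protein gene hspb1 had 48.8, 13.4 and 34.9 CPM, lowest in replicate 2. The gene si:ch211-281l24.3, whose function the files do not give, had 9.70, 28.4 and 35.3 CPM, lowest in replicate 1. The gene zgc:158463 on chromosome 5 (824709 to 825920) had 7067, 2671 and 2555 CPM, so replicate 1 alone was high. The lincRNA CT027638.1 was high in the same sample, with 6883, 3964 and 3532 TPM. The last of the 20 genes by ratio was apoa2 at 2.53.

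**Figure D4:**
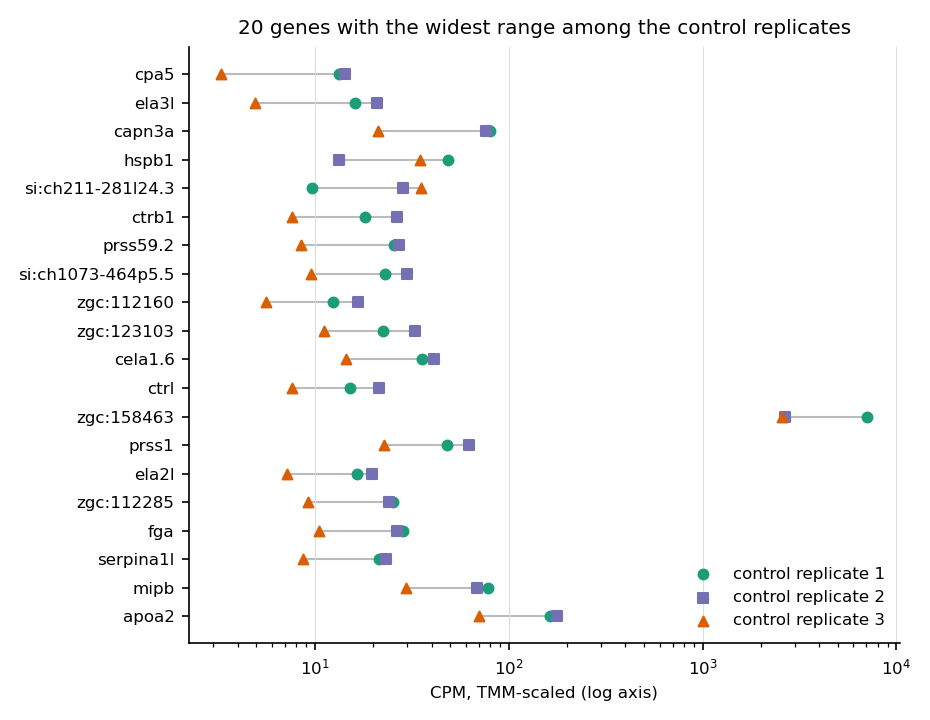
TMM-scaled CPM (log axis) of the 20 genes with a symbol, a mean of at least 10 CPM and the widest range among the controls, with 1 symbol for each of control replicates 1, 2 and 3 and a line over the range. Replicate 3 is the lowest of the 3 in 18 of the 20 genes.

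At the other end, 1381 genes had at least 100 CPM and the 10 narrowest of them had ratios of highest to lowest between 1.004 and 1.011. The homeobox gene meis1b had 154, 154 and 153 CPM, and the mitochondrial gene romo1 145, 146 and 146 CPM. The chromatin genes atrx, with 225, 223 and 224 CPM, and ash1l, with 193, 194 and 195 CPM, and the transcription factor gene zeb2a, with 136, 135 and 136 CPM, were as close. The ribosome assembly gene nop56 had 104 CPM in each sample. These genes are the tail of 1381 and were chosen for their ratios, which are given as a description.

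Exposed samples varied among themselves along the same direction. Over the 10262 genes, the deviation of control replicate 3 was correlated with that of single exposed libraries from their own group mean at r up to 0.557, 0.575, 0.508, 0.325 and 0.453 in absolute value at 7, 70, 700, 3500 and 7000 µM. The difference between control replicates 1 and 2 gave 0.207, 0.144, 0.0761, 0.153 and 0.187. These values are across genes, which are not independent, and the libraries share no sample, so they are a description. The 20 widest control genes spanned over 2-fold within the group in 5, 17, 13, 4 and 6 of 20 cases at 7, 70, 700, 3500 and 7000 µM. The shares over the 10262 genes were 0.565, 2.3, 0.897, 1.54 and 4.19%. Of the 20 genes, 9 are exocrine pancreas genes, so the cases are not independent. Each of these 9 spanned over 2-fold at both 70 and 700 µM.

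The exocrine pancreas spread widely at 70 and 700 µM and less in the other exposed groups. Its share was 0.149, 0.0112 and 0.0286% of TPM in replicates 1, 2 and 3 at 70 µM, and 0.0338, 0.02 and 0.123% at 700 µM. The trypsin gene prss1 spanned 22.2-fold at 70 µM and 7.90-fold at 700 µM, compared with 2.76-fold in the controls and 1.07-fold at 3500 µM. At 3500 µM the share of the list was 0.0282, 0.0401 and 0.0297%, so the spread was not a feature of every group.

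**Figure D5:**
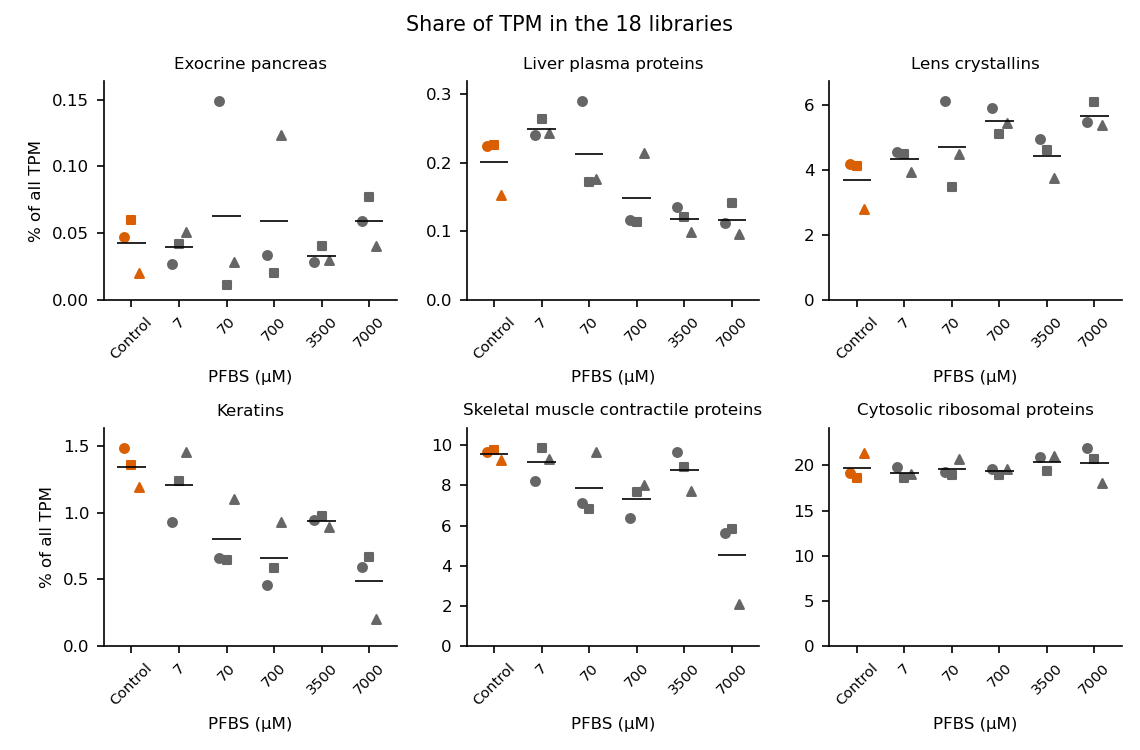
Share of all TPM held by 6 gene lists in the 18 libraries, by group (control, then PFBS in µM). Circles, squares and triangles are replicates 1, 2 and 3, controls are orange, and the bar is the mean of 3. Exocrine pancreas spreads from 0.0112 to 0.149% at 70 µM, while contractile proteins have their lowest value, 2.09%, in replicate 3 at 7000 µM.

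The same genes were then compared with each exposed group in a single edgeR quasi-likelihood fit of all 18 samples, with Benjamini-Hochberg adjustment over 21046 genes and a threshold of 0.05. At 7 µM 0.0333% of all genes were called, 0.0143% higher and 0.019% lower, and at 70 µM 0.28%, with 0.185% higher and 0.095% lower. The share rose to 3.2% for 700 µM (1.27% higher, 1.93% lower), 9.47% for 3500 µM (5.14% higher, 4.33% lower) and 25.0% for 7000 µM (12.7% higher, 12.3% lower). All 5 comparisons share the 3 controls. None of the 40 highest control genes was called by edgeR at 7, 70 or 700 µM, where 0, 0 and 4 had an unadjusted p under 0.05 and DESeq2 called 0, 0 and 1. At 3500 µM 11 were called, each a mitochondrial gene that rose. At 7000 µM the same 11 genes and rps29 rose, and 10 fell.

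All 10 that fell at 7000 µM were muscle genes. The gene actc1b had 15882, 15736 and 5070 CPM at 7000 µM, against a control mean of 26086 ± 222 CPM (SD, n = 3), a log2 change of -1.09 ± 0.30 (SE; edgeR adjusted p = 0.0154). Contractile proteins as a list had 2 of 68 tested genes higher and 40 lower at 7000 µM, with a median log2 change of -0.89 against -0.01 over all genes. Without 7000 µM replicate 3, which was the lowest sample for actc1b, 3 were higher and 28 lower. Keratins had 17 of 21 lower at 7000 µM and 13 of 22 without that library. The mitochondrial gene mt-co1 rose by a log2 of 0.55 ± 0.18 at 7000 µM (SE; edgeR adjusted p = 0.0323), with 29243, 28150 and 37238 CPM against 21615 ± 944 CPM in controls. All 15 tested mitochondrial genes were called higher there, and 9 of them without 7000 µM replicate 3. Over all genes 5259 were called at 7000 µM, and 2362 without that library. The smaller list counts were therefore not separated from a fall in overall calling.

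The numbers of crystallin and liver genes called moved when control replicate 3 was left out. Crystallins were called higher in 16, 17 and 25 of 48 tested genes at 700, 3500 and 7000 µM, and in 5, 6 and 18 of 50 once control replicate 3 was left out. The gene crybb1 had 2908, 3012 and 2583 CPM at 7000 µM against 2061, 1975 and 1548 CPM in the controls, groups that do not overlap, with a log2 change of 0.61 ± 0.17 (SE; edgeR adjusted p = 0.016). The lens gene cryaa had 73.7, 60.23 and 30.7 CPM in the controls and 37.0, 52.4 and 26.9 CPM at 7000 µM, which overlap. Liver genes moved the other way. Of 76 tested, 6, 31 and 19 were called lower at 700, 3500 and 7000 µM. Without control replicate 3 these counts were 17, 41 and 29, of a number tested that is not given here. Over all genes the totals at these concentrations ran from 42 to 718, 478 to 3333 and 2362 to 5616 with single replicates left out. The values 42, 478, 3333 and 2362 came from leaving out libraries other than control replicate 3. That replicate is not among the libraries listed below for moving these totals. Without it the crystallin counts fell and the liver counts rose at each of these concentrations, so the lists did not follow a shared rise or fall in calling. The exact totals without control replicate 3 are not given here, and the part of overall calling in each count was not tested.

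The exocrine pancreas list had no edgeR call at any concentration in 30 genes tested, with 2, 0, 2, 0 and 0 at an unadjusted p under 0.05 from 7 to 7000 µM and 0 DESeq2 calls at each. Its median log2 change ran from -0.20 at 3500 µM to 0.51 at 700 µM, against medians within 0.03 of 0 over all genes. With standard errors of 0.75 for prss1 and 0.70 for cpa5 at 700 µM, a change of the size seen in the list was not detectable. Of the 20 widest control genes, 0, 1, 2, 5 and 4 were called at 7, 70, 700, 3500 and 7000 µM, each of them lower. Over all genes 0.019, 0.095, 1.93, 4.33 and 12.3% were called lower. Among the 20, hspb1 was called at the 4 highest concentrations and fell, with a log2 change of -2.20 ± 0.31 at 7000 µM (SE; edgeR adjusted p = 0.00024). At 7 µM, fkbp5, a chaperone gene of the glucocorticoid receptor named here after its values were seen, was called higher by 1.67 ± 0.28 (SE; edgeR adjusted p = 0.0455). Its control values were 37.6, 28.4 and 57.3 CPM, highest in replicate 3.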

How the data were processed

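RNAzol served for RNA extraction from 18 whole-larva samples and a KAPA kit for library quantification, per the labels' protocols. Read counts, RPKM and TPM values were deposited for each annotated transcript, per the file headers. The sources used here name no aligner, counter, genome build or strand setting. Samples were assigned to groups by their labels, and all transcripts of a parent gene were summed.

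The deposited TPM values gave the levels of genes and the shares of lists, as mean ± SD of 3 samples. The deposited RPKM values and the counts gave the transcript lengths behind them. Annotated lengths of nuclear transcripts were estimated from the relation of both lengths in 15 mitochondrial genes. The deposited counts were scaled to CPM with TMM factors (trimmed mean of M values) in edgeR 4.0.16 (R 4.3.3, limma 3.58.1). Spread was the edgeR common dispersion of the controls after filterByExpr. Deviations and ranges used genes with a mean of at least 10 CPM in the controls and an offset of 0.5 CPM on the log2 scale. Each exposed group was compared with controls by the quasi-likelihood F test, two-sided, in a single fit of all 18 samples, with Benjamini-Hochberg adjustment over 21046 genes. DESeq2 1.42.0 served as an alternative. Tables were handled in Python 3.11.15 with pandas 2.3.3 and numpy 2.4.6. On simulated counts for 7000 µM against controls with 21130 genes, the test recovered 27 of 50 genes raised and 19 of 50 lowered by a log2 of 1, and all 50 raised and 50 lowered by a log2 of 2, with 8 false calls.

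Genes named were the 40 highest by TPM, the 20 highest protein-coding genes by CPM, the 6 highest of each list, defining tissue markers, the 20 genes with the widest range and the 10 with the narrowest. The genes smyhc1, mt-nd5, mt-nd6, hbba1, hbaa1, opn1lw1, opn1mw3, opn1mw4, elavl3, cryaa, ela3l and fkbp5 were named for their role or after their values were seen. The members and lists were chosen with earlier results of these data known. Alternatives covered the unit, the length behind TPM, mitochondrial genes, the scaling, the filter, transcripts in place of genes, the samples in the fit, the replicate number as a block, and each replicate left out. Depth, given with the results, limits genes of a few counts, for which floors cover counting error only.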

Additional observations from a re-analysis of the deposited data

How the results depend on the processing

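The number of genes holding 50% of control TPM, 97.3, became 331 by read counts, and it lay between 95.5 and 100 with each control left out. The share of all lists, 67.8% of TPM, became 50.8% by read counts and 63.2% without mitochondrial genes. It became 64.5% with the estimated annotated lengths, an alternative chosen after seeing the data. With each control left out it lay between 67.6 and 68.0%. Among 51 lists, 24 moved by over 1.5-fold by read counts and 0 with the estimated annotated lengths. The coefficient of variation between controls, 9.57%, was 15.9% over transcripts and 6.31 to 11.3% with each control left out, lowest without replicate 3.

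Counts of genes called against controls, 7, 59, 674, 1994 and 5259 from 7 to 7000 µM, depended on the processing, and the cause was not tested. Over transcripts they were 0, 18, 74 and 1039 up to 3500 µM. Beside that 0 over transcripts, the edgeR gene fit at 7 µM had 1057 of 21046 genes at an unadjusted p under 0.05. That share is close to the threshold itself. DESeq2 called 42 genes at 7 µM. DESeq2 called 211 at 70 µM and 1077 at 700 µM. A fit of the 2 groups alone called 1902 at 700 µM. Without 7000 µM replicate 3 in any comparison, chosen after seeing the data, 12, 143 and 1302 were called at 7, 70 and 700 µM. With 1 replicate left out, the counts ran from 2 to 4, from 8 to 289, from 42 to 718, from 478 to 3333 and from 2362 to 5616. At 7 and 70 µM every left-out library moved them by over 1.5 times. At 700 µM these were control replicates 1 (57) and 2 (84) and exposed replicates 1 (42) and 2 (77). At 3500 µM they were control replicates 1 (478) and 2 (643) and exposed replicates 1 (633), 2 (3333) and 3 (596), and at 7000 µM control replicates 1 (2463) and 2 (3165) and exposed replicate 3 (2362). DESeq2 size factors and no filter on low counts moved no count by over 1.5 times.

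With the replicate number as a block, 3, 37 and 441 genes were called at 7, 70 and 700 µM, and the counts at 3500 and 7000 µM, 1757 and 4943, moved by under 1.5 times. The deviations of 45 same-numbered pairs had r from -0.335 to 0.266, and those of 90 differently numbered pairs from -0.334 to 0.360. Best correlations were with the own number in 3 of 18 samples. Same-numbered samples were thus no closer by this measure, and a shared clutch or batch was not tested.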
